A study of Arabidopsis thaliana with 9 samples.

Results

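The SCL3 probe set (probe set ID.261866_at) is 1 of the 22746 plant probe sets measured on Affymetrix ATH1 arrays of Arabidopsis thaliana whole roots. It was picked by its own signal, because it was low in the scl3 mutant and high in the SCL3 overexpressor. It is expected to report SCL3 (AT1G50420), but the annotation used here did not name it, so the name rests on how it was chosen. The 9 arrays came from roots at 7 days after germination, 1 array per sample, all in the Col-0 ecotype. SCL3 OE (3 arrays) is a line that overexpresses SCL3, whose promoter and number of lines are not given in the sources used here. The scl3 mutant (3 arrays) carries the allele scl3-1, for which the place of the lesion relative to the probes is not given either. Wild-type Col-0 (3 arrays) is the common control. Plants of the 3 genotypes were grown on MS medium in long days, and the samples are described as biological triplicates.

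SCL3 belongs to the GRAS family of plant transcriptional regulators, which also holds the DELLA repressors of gibberellin signalling and the root patterning factors SHORT-ROOT and SCARECROW. SCL3 is known to promote gibberellin responses by opposing DELLA proteins, in large part in the endodermis of the root, and its own gene is activated by DELLA proteins. GRAS proteins of this group act on genes together with zinc finger proteins of the IDD family, such as JACKDAW (JKD).

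The signal of the SCL3 probe set separated the 3 genotypes on every array. It was 3636, 3833 and 3542 in SCL3 OE, 15.0, 23.0 and 23.1 in scl3, and 748, 770 and 561 in Col-0, each set in the order of replicates 1, 2 and 3. No array of one genotype overlapped another genotype, and the order of the levels was SCL3 OE above Col-0 above scl3. On the log2(signal + 1) scale the means were 11.84 ± 0.06 in SCL3 OE, 4.39 ± 0.34 in scl3 and 9.42 ± 0.25 in Col-0 (SD, n = 3 each). Since the probe set was picked for this pattern, these levels are a description and carry no test.

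The coefficient of variation over the 3 arrays was 4.05% in SCL3 OE, 22.9% in scl3 and 16.6% in Col-0. The Col-0 value rests on replicate 3, since over replicates 1 and 2 it was 3.72% in SCL3 OE, 30.0% in scl3 and 1.98% in Col-0. Among all plant probe sets of its array, the SCL3 probe set stood at the 96.3rd to 96.6th percentile in SCL3 OE, the 16.3rd to 21.2nd in scl3 and the 75.6th to 80.7th in Col-0. In scl3 its signal lay below the lower quartile of the array, which was 31.3 to 32.4 there, so the size of the scl3 difference rests on a dim signal. The log2 difference was -5.03 for scl3 minus Col-0, or -3.78 with an offset of 32 in place of 1. It was 2.42 for SCL3 OE minus Col-0, and 2.36 with the offset of 32.

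**Figure D1:**
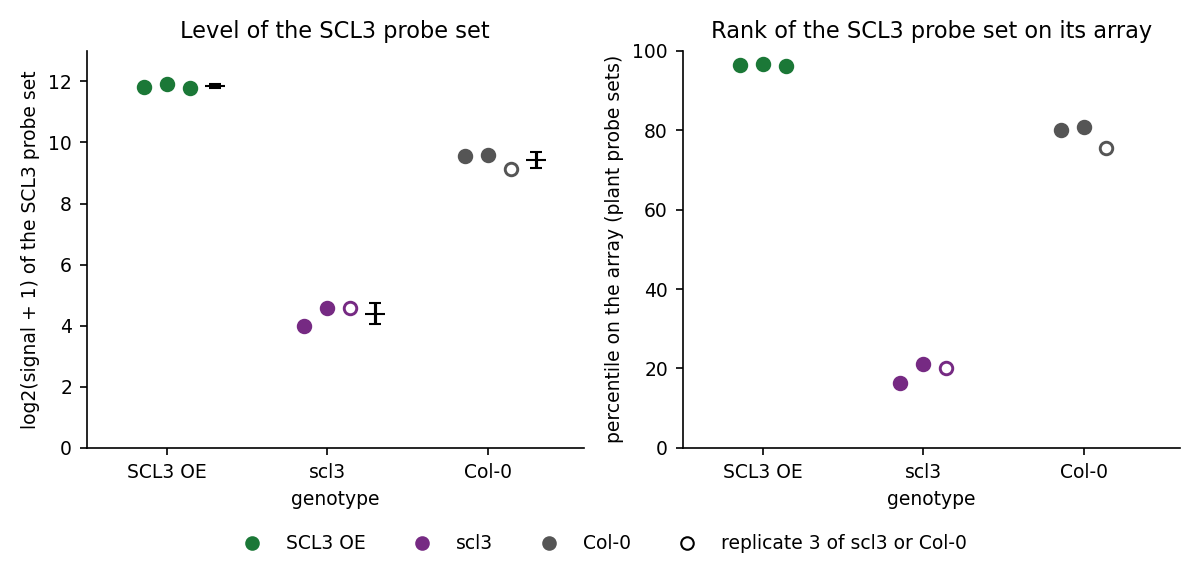
Level of the SCL3 probe set on the 9 arrays by genotype, as log2(signal + 1) at left (black bars, mean ± SD, n = 3) and as the percentile among the plant probe sets of the same array at right. SCL3 OE lies near 11.84, scl3 near 4.39 and Col-0 near 9.42, and the replicate 3 arrays of scl3 and Col-0 (open circles) lie with their genotypes.

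The replicate 3 arrays of scl3 and Col-0 stood apart from the others. Over the tested probe sets they correlated at 0.653 to 0.679 with replicates 1 and 2 of the same genotypes, which correlated at 0.985 to 0.989 among themselves; probe sets are not independent replicates. The transcript of RCA, the Rubisco activase of leaves, had signals of 25208 in scl3 replicate 3 and 22981 in Col-0 replicate 3, against 212 and 380 in the other scl3 arrays and 254 and 301 in the other Col-0 arrays. RCA read 1131, 987 and 875 in SCL3 OE. The spiked-in control RNAs, cut into 3 clusters after the data were seen, also put these 2 arrays in a cluster, the other scl3 and Col-0 arrays in another and the 3 SCL3 OE arrays in a cluster of their own. Genotype and array cluster therefore cannot be told apart for SCL3 OE. The level of the SCL3 probe set kept its direction on both sides of this split, with a log2 difference of scl3 minus Col-0 of -5.28 in replicates 1 and 2 (n = 2 each) and -4.54 in replicate 3 (n = 1 each).

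No probe set passed a straight-line relation with the SCL3 probe set. Each of the 13646 other tested probe sets was fitted with limma on the log2 signal of the SCL3 probe set over the 9 arrays, with a term that sets the replicate 3 arrays of scl3 and Col-0 apart. At an adjusted p under 0.05 (Benjamini-Hochberg over all tested probe sets), 0 passed (0% of those tested), while 4327 had an unadjusted p under 0.05. The smallest adjusted p was 0.0509, just outside the threshold. The count turned on single arrays and settings, since 2060 passed without Col-0 replicate 1, 1472 without Col-0 replicate 2 and 1961 with a log2 offset of 32. With the 3 genotypes coded as equal steps in place of the signal, 3867 passed. With the 3 array clusters as a random block, 0 passed, with 804 at an unadjusted p under 0.05. The SCL3 OE arrays are a cluster of their own, and the correlation within clusters was put at 0.898. That fit could therefore draw little on the step to SCL3 OE, and its count decides nothing about that step.

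Nearly all of the genotype differences lay on the overexpressor side. In SCL3 OE against Col-0, 4589 of 13646 probe sets were called by limma with the same term (33.6%), 2402 higher and 2187 lower. In scl3 against Col-0, 0 were called (0%), with 1142 at an unadjusted p under 0.05 and a smallest adjusted p of 0.205. The slope on the SCL3 probe set over the 6 arrays of scl3 and Col-0 alone also gave 0 calls in limma, where 771 had an unadjusted p under 0.05. The median absolute log2 difference was 0.26 for SCL3 OE minus Col-0 and 0.10 for scl3 minus Col-0, whereas the SCL3 probe set itself moved by 2.39 log2 units in the first step and by 5.03 in the second in this fit. These 2 comparisons share the Col-0 arrays. Without the term for the replicate 3 arrays, 163 were called in SCL3 OE against Col-0. With the array clusters as a random block 0 were called, with 248 at an unadjusted p under 0.05. Since SCL3 OE is a cluster of its own, that fit could hardly call its differences, and no conclusion is drawn from it.

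The 2 steps were then compared directly. For 2980 probe sets (21.8% of those tested), the change per log2 unit of the SCL3 probe set between SCL3 OE and Col-0 differed from that between Col-0 and scl3 in limma. All 2980 were steeper per unit on the SCL3 OE side, as were 11973 (87.7%) of all tested probe sets. The median absolute log2 differences of the 2980 were 0.74 for SCL3 OE minus Col-0 and 0.12 for scl3 minus Col-0. Over all tested probe sets they were 0.26 and 0.10, and the 2980 were selected for differing steps. A given log2 difference counts for more per unit on the SCL3 OE side, because the SCL3 probe set spans fewer units there. With the replicate number as a block 1928 were called, without Col-0 replicate 1 1662 were, and without Col-0 replicate 2 1794 were. With no term for the replicate 3 arrays 4 were called, and with the random block 0 were, where 229 had an unadjusted p under 0.05. The random block could hardly give calls here either, because SCL3 OE is a cluster of its own.

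**Figure D2:**
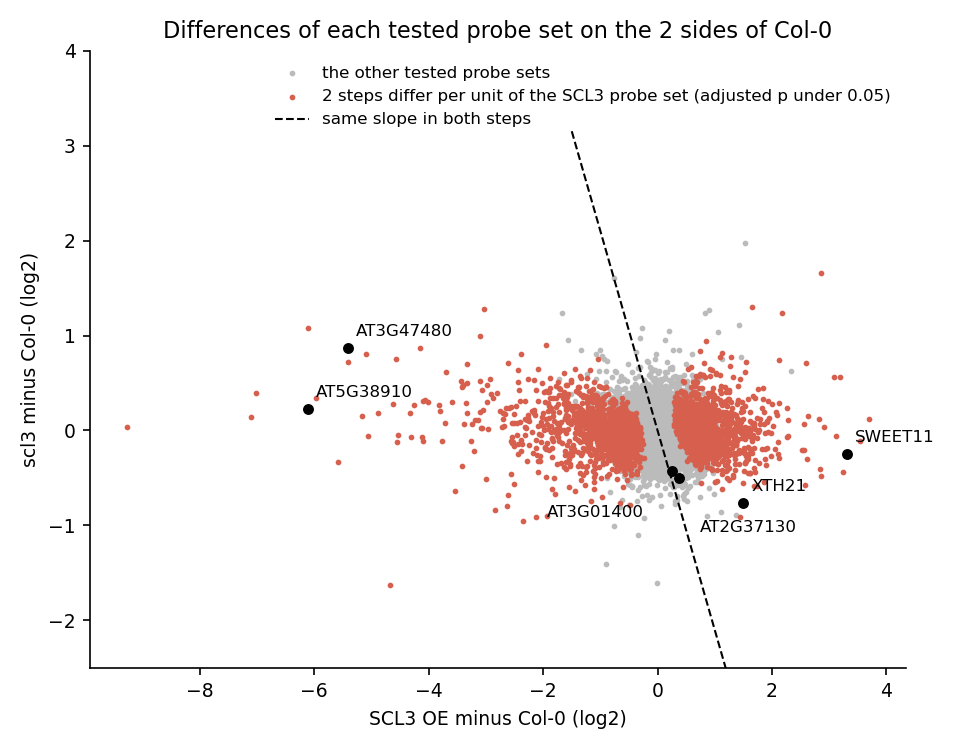
Log2 difference of SCL3 OE minus Col-0 (horizontal) and of scl3 minus Col-0 (vertical) for the 13646 tested probe sets, from the limma fit with the replicate 3 term. The 2980 probe sets whose steps differ per unit of the SCL3 probe set (red) spread along the horizontal axis, AT3G01400 and AT2G37130 lie by the dashed line of equal slope, and both axes share the Col-0 arrays.

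Without a test, the probe sets can be sorted by the order of the genotypes. Over the 7 arrays left when the replicate 3 arrays of scl3 and Col-0 are set apart, 773 probe sets (5.66%) had all SCL3 OE values above all Col-0 values and these above all scl3 values, as the SCL3 probe set has. The reverse order was found for 681 (4.99%). Over all 9 arrays the same order was found for 62 (0.454%) and the reverse order for 21 (0.154%). The fixed rule for naming genes asked for a called slope and so named none. The genes most alike and the steepest genes below were therefore chosen after their values were seen, by the same rule without that condition. A few genes with the smallest p of the slope in limma were added outside that rule. The likeness to the SCL3 probe set is given as Pearson's r on log2 signals. The arrays fall into 3 separate clusters of the SCL3 probe set signal, so r is a description of shape that the genotypes share, with no test.

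Of the genes with the shape of the SCL3 probe set, the 8 most alike had r of 0.964 to 0.990 over the 7 arrays (Spearman's rho 0.821 to 0.964). Their changes were small, at log2 0.10 to 0.47 for SCL3 OE minus Col-0 and -0.50 to -0.07 for scl3 minus Col-0. AT5G47180, of the VAP family of membrane contact proteins, was the most alike, with r = 0.990 over 7 arrays and 0.991 over all 9. Its signals were 727, 749 and 769 in SCL3 OE, 512, 549 and 526 in scl3, and 672, 661 and 670 in Col-0. The 3 genotypes did not overlap, the replicate 3 arrays included, and the slope was 0.0671 ± 0.0116 log2 per log2 unit of the SCL3 probe set (SE, adjusted p = 0.0641, limma).

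AT3G01400, an armadillo-repeat protein, had r = 0.981 over 7 arrays and 0.965 over 9. It read 679, 738 and 749 in SCL3 OE, 463, 447 and 404 in scl3, and 601, 610 and 553 in Col-0, again with no overlap on any array. Its slope was 0.0883 ± 0.0127 (SE, adjusted p = 0.0555, limma), and its log2 difference passed between SCL3 OE and scl3 (adjusted p = 0.000247, limma) but not for either of them against Col-0 (0.0695 for SCL3 OE and 0.292 for scl3).

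The peroxidase gene AT2G37130 had the smallest p of all slopes, at 0.115 ± 0.0137 (SE, adjusted p = 0.0509, limma). It read 9978, 9063 and 9090 in SCL3 OE, 5212, 4733 and 3846 in scl3, and 7427, 7256 and 5010 in Col-0. Col-0 replicate 3 lay within the range of scl3, so the genotypes were apart on 7 arrays and not on 9. It rose 1.30-fold in SCL3 OE against Col-0 (log2 0.38 ± 0.08, SE, adjusted p = 0.00416, limma), and its log2 difference of scl3 minus Col-0 was -0.50 ± 0.08 (SE, adjusted p = 0.205, limma).

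Also near the threshold, with an adjusted p of 0.0509 each in limma, were AT2G26690, of the NPF family of nitrate and peptide transporters, AT3G22620, a lipid-transfer-like protein, and AT2G20670. Some probe sets without 1 annotated gene had the same adjusted p, and 1 of them kept the genotype order on all 9 arrays (r = 0.962 over 9). AT2G26690 had a slope of 0.181 ± 0.0220 (SE), with signals of 489, 430 and 439 in SCL3 OE, 184, 153 and 819 in scl3, and 260, 269 and 1435 in Col-0. Its replicate 3 arrays were the highest of all, and r was 0.948 over 7 arrays and 0.297 over 9. AT3G22620 (slope 0.120 ± 0.0156) was lowest in the replicate 3 arrays, at 616 in scl3 and 1006 in Col-0, against 3048 and 3489 in the other scl3 arrays and 4248 and 5331 in the other Col-0 arrays. AT2G20670 (slope 0.132 ± 0.0174) was highest there, at 2667 in scl3 and 4847 in Col-0, against 512 and 464 in the other scl3 arrays and 646 and 698 in the other Col-0 arrays. For these 3 genes the replicate 3 arrays kept scl3 below Col-0, at a level far from that of the other arrays.

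The other genes among the 8 most alike were AT1G01570, AT1G16860, AT2G04850, AT3G52950 and SEU, the co-regulator SEUSS. AT2G04850 kept its order on all 9 arrays, at 215, 228 and 216 in SCL3 OE, 159, 153 and 148 in scl3, and 210, 199 and 194 in Col-0. SEU and AT3G52950 had slopes of 0.0274 ± 0.0137 and 0.0446 ± 0.0181 (SE, adjusted p = 0.199 and 0.129, limma), and their r over 9 arrays was 0.707 and 0.389. Of the 8, 1 was called in SCL3 OE against Col-0, where 33.6% of all tested probe sets were, and 7 in SCL3 OE against scl3, where 39% of all tested probe sets were called in limma (20.2% higher and 18.8% lower). The 8 were picked for their genotype order on the same arrays, so these counts are a description and no sign of enrichment.

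**Figure D3:**
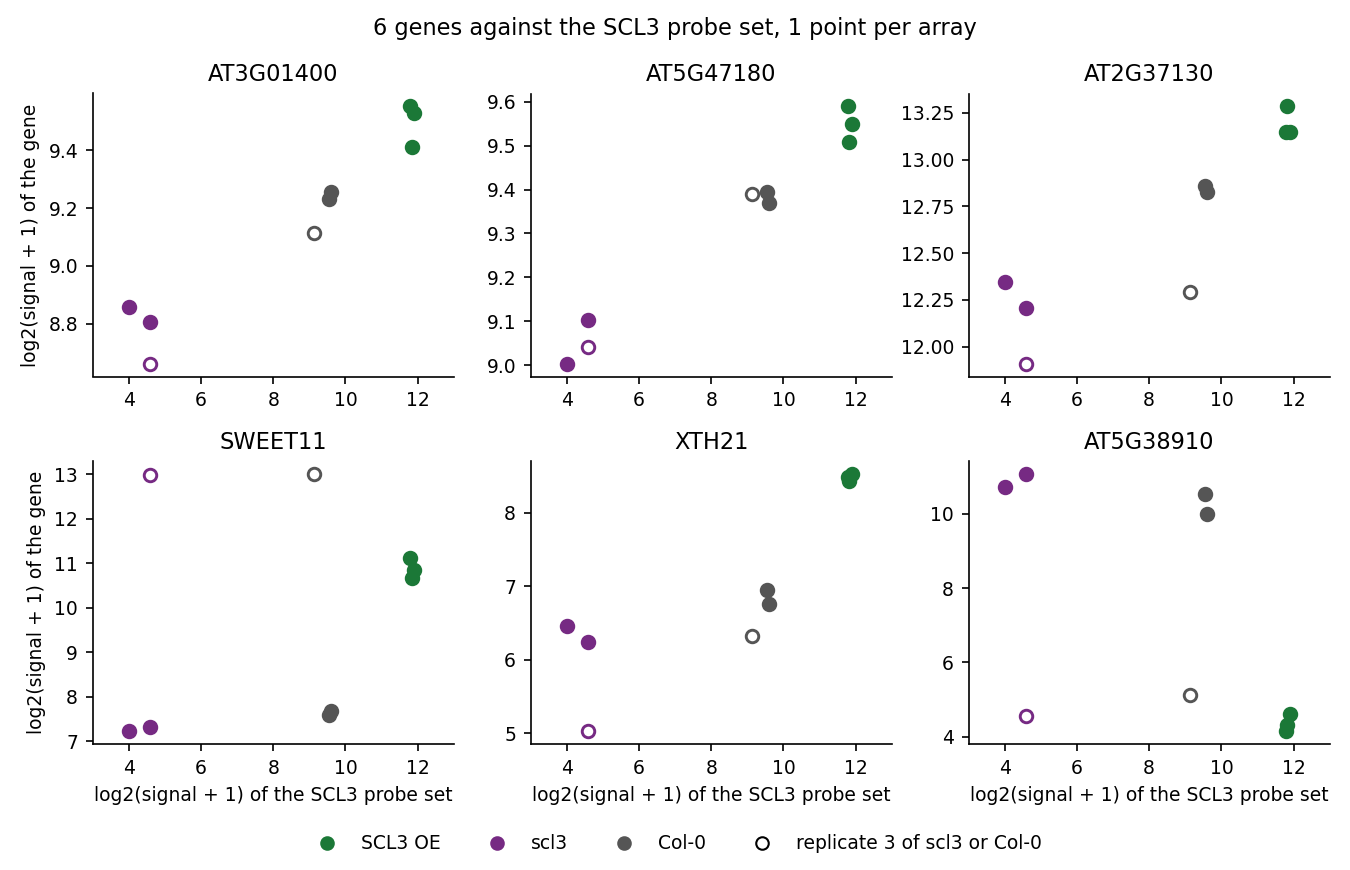
Log2 signal of 6 genes against that of the SCL3 probe set, 1 point per array, with open circles for replicate 3 of scl3 and Col-0. AT3G01400, AT5G47180 and AT2G37130 climb from scl3 through Col-0 to SCL3 OE, while SWEET11, XTH21 and AT5G38910 change mainly at SCL3 OE, and the open circles of SWEET11 and AT5G38910 lie far from their genotypes.

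The genes with the steepest slopes had another shape. The 6 with the largest positive slopes, at 0.268 to 0.387, were SWEET11, SWEET3, AT4G22460, AT3G45700, AT1G31710 and XTH21. None of these slopes passed (adjusted p 0.0621 to 0.0730, limma). Each of the 6 genes rose in SCL3 OE against Col-0 in limma, where 17.6% of all tested probe sets were called higher. They were picked for steep slopes and genotype order on the same arrays, so this count is a description. SWEET11, a sucrose transporter of phloem loading, rose 9.88-fold (log2 3.30 ± 0.13, SE, adjusted p = 4.81e-08, limma), with -0.25 ± 0.12 for scl3 minus Col-0 (adjusted p = 0.634). Its signals were 1635, 1842 and 2212 in SCL3 OE, 148, 158 and 8136 in scl3, and 192, 204 and 8180 in Col-0. The replicate 3 arrays were thus about as high for scl3 as for Col-0, on the arrays where RCA was also highest, and RCA was itself called higher in SCL3 OE (log2 1.85 ± 0.19, SE, adjusted p = 3.34e-05, limma). The part of leaf transcripts in the SWEET11 difference was not tested. SWEET3 read 458, 450 and 401 in SCL3 OE, 50.4, 51.1 and 53.4 in scl3, and 85.5, 98.0 and 24.8 in Col-0. In replicate 3, SWEET3 was thus higher in scl3 than in Col-0.

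XTH21, a xyloglucan endotransglucosylase of the cell wall, read 346, 367 and 357 in SCL3 OE, 87.2, 74.9 and 31.5 in scl3, and 123, 107 and 79.1 in Col-0. It rose 2.81-fold in SCL3 OE against Col-0 (log2 1.49 ± 0.20, SE, adjusted p = 0.000224, limma) and had -0.77 ± 0.19 for scl3 minus Col-0 (adjusted p = 0.445). AT1G31710, a copper amine oxidase, kept its order on all 9 arrays, at 312, 268 and 330 in SCL3 OE, 79.6, 66.7 and 39.3 in scl3, and 120, 80.9 and 139 in Col-0. It was the only one of the 6 whose steps were not called different (adjusted p = 0.0840, limma). AT4G22460, a lipid-transfer-like protein, had the largest log2 difference of the 6 for scl3 minus Col-0, at -0.91 ± 0.18 (SE, unadjusted p = 0.000388, adjusted p = 0.292, limma). AT3G45700, of the NPF transporter family, had -0.54 ± 0.10 there (adjusted p = 0.232) and 1.86 ± 0.11 for SCL3 OE minus Col-0 (adjusted p = 7.19e-07, limma).

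In the reverse order, the 6 steepest genes had slopes of -0.697 to -0.500, none of which passed (adjusted p 0.0641 to 0.0730, limma). All 6 genes fell in SCL3 OE against Col-0 in limma, where 16% of all tested probe sets were called lower. They were AT3G47480, an EF-hand calcium-binding protein, AT5G38910, a germin-like protein, AT1G26390, a berberine-bridge-type oxidase, the peroxidase AT4G36430, the MATE efflux carrier AT1G71140, and AT4G28460. AT5G38910 read 18.9, 23.3 and 16.6 in SCL3 OE, 1684, 2144 and 22.3 in scl3, and 1470, 1028 and 34.0 in Col-0. It was low in SCL3 OE and in both replicate 3 arrays, and high in the other arrays of scl3 and Col-0. Its log2 difference of SCL3 OE minus Col-0 was -6.12 ± 0.27 (SE, adjusted p = 8.17e-08, limma), on signals near the floor, and that of scl3 minus Col-0 was 0.22 ± 0.26 (adjusted p = 0.851). AT4G36430 read 167, 142 and 105 in SCL3 OE, 5861, 5495 and 255 in scl3, and 5059, 4385 and 272 in Col-0, the same layout. AT1G26390, AT1G71140 and AT4G28460 had this layout too. Their replicate 3 signals in scl3 and Col-0 were 116 and 64.1, 47.1 and 84.7, and 28.7 and 3.77. The other scl3 and Col-0 arrays read 801 to 1800, 741 to 1547 and 397 to 856 for these genes. AT3G47480 read 30.2, 3.20 and 14.5 in SCL3 OE, 845, 754 and 541 in scl3, and 662, 672 and 127 in Col-0, with SCL3 OE replicate 2 and Col-0 replicate 3 well below the others of their genotypes. The steps of all 6 were called different in limma (adjusted p 4.59e-07 to 0.0247), where 21.8% of all tested probe sets were. Since these genes were picked for steep slopes on the same arrays, their counts of calls are a description.

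The 8 genes most alike in the reverse sense had r of -0.983 to -0.960 over 7 arrays, and none kept the order on 9. The most alike were AT3G51010 and MDH, the plastid malate dehydrogenase, whose signals hardly moved. MDH read 2289, 2295 and 2308 in SCL3 OE, 2382, 2370 and 2083 in scl3, and 2327, 2328 and 1959 in Col-0, a slope of -0.00807 ± 0.0103 (SE, adjusted p = 0.617, limma). A high r thus marked the same shape and not a large change. AT2G34160 had the smallest adjusted p for SCL3 OE against scl3 after AT1G56020 (0.0068 and 0.00503, limma), with signals of 708, 754 and 760 in SCL3 OE, 1202, 1007 and 616 in scl3, and 835, 822 and 631 in Col-0. The rest were AT1G03560, iqd33 of the IQ-domain family, AT1G20816 and AT5G39960, with log2 differences of SCL3 OE minus Col-0 of -0.41 to -0.18.

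Of the probe sets whose genotypes were apart on all 9 arrays, 38 in the order of the SCL3 probe set and 10 in the reverse order had 1 annotated gene. The 38 had log2 differences of 0.10 to 1.42 for SCL3 OE minus Col-0 (median 0.40) and -0.89 to -0.08 for scl3 minus Col-0 (median -0.27). Besides the genes above they held ACT11, an actin, ARA6, a Rab GTPase of endosomes, GH9B7, a glycosyl hydrolase of the endoglucanase family, and ALDH10A8, an aldehyde dehydrogenase. ACT11 had log2 signals of 9.43, 9.28 and 9.31 in SCL3 OE, 8.55, 8.45 and 8.59 in scl3, and 8.70, 8.67 and 8.59 in Col-0, so that scl3 and Col-0 nearly touched. AT4G01140 had the largest SCL3 OE difference of the 38 (log2 1.42). Among the 10 in reverse order was CYP71B23, a cytochrome P450, with -0.32 for SCL3 OE minus Col-0 and 0.29 for scl3 minus Col-0. These genes were chosen by their order, which fixes the signs.

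Genes of the gibberellin pathway were next read against the SCL3 probe set. The 11 gene lists held 119 genes, of which 26 had a tested probe set with 1 gene. None of the 26 had a called slope, a call in scl3 against Col-0, or the genotype order of the SCL3 probe set or its reverse without overlap over the 7 arrays. No gene of gibberellin metabolism had a named probe set. In gibberellin signalling 7 of 12 genes were tested, with a median slope of 0.0309. Over all tested probe sets the median slope was 0.000592, where rises and falls cancel, and the median absolute slope was 0.0322. Of the 7, 1 rose and 1 fell in SCL3 OE against Col-0 in limma, where 17.6% of all tested probe sets were called higher and 16% lower. GID1A, a gibberellin receptor, rose in SCL3 OE against Col-0 (log2 0.94 ± 0.11, SE, adjusted p = 8.02e-05, limma), with signals of 580, 541 and 584 in SCL3 OE, 357, 358 and 1471 in scl3, and 304, 267 and 1450 in Col-0. On the arrays other than replicate 3, scl3 lay above Col-0, so GID1A was lowest in Col-0 and did not follow the order of the SCL3 probe set. SLY2, an F-box protein that targets DELLA proteins, fell 3.53-fold (log2 -1.82 ± 0.18, SE, adjusted p = 2.17e-05, limma), at 64.9, 76.6 and 56.4 in SCL3 OE, 242, 255 and 114 in scl3, and 242, 230 and 102 in Col-0. Its slope of -0.206 ± 0.0620 had an adjusted p of 0.0747 (SE, limma), and its 2 steps were called different (0.000299). For GID1A and SLY2, the replicate 3 arrays departed from the other scl3 and Col-0 arrays in the same direction as SCL3 OE. The part of leaf transcripts in these differences was not tested. The receptors GID1C and GID1B, and SPY, SLY1 and SEC, which act on DELLA proteins or their turnover, had slopes of -0.0293 to 0.102 and adjusted p of 0.0708 to 0.819 (limma).

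Of the DELLA target and gibberellin response list, 4 of 12 genes were tested, with a median slope of 0.0619, and 2 rose in SCL3 OE against Col-0, where 17.6% of all tested probe sets were called higher. The 2 were GID1A and XERICO, a RING protein linked to abscisic acid (log2 0.55 ± 0.14, SE, adjusted p = 0.0118, limma). AT2G31730 had 0.52 ± 0.22 (adjusted p = 0.0841). Of the other GRAS genes, 8 of 31 were tested, with a median slope of 0.0268, and 1 rose and 1 fell in SCL3 OE, against 17.6% and 16% of all tested probe sets. AT5G66770 rose (log2 0.66 ± 0.18, SE, adjusted p = 0.0136, limma), at 170, 152 and 158 in SCL3 OE, 96.4, 104 and 185 in scl3, and 103, 87.3 and 249 in Col-0. AT1G63100 fell (-0.84 ± 0.25, SE, adjusted p = 0.0228, limma). In both genes the replicate 3 arrays of scl3 and Col-0 departed from the others in the same direction as SCL3 OE, and the part of leaf transcripts was not tested. SCL21 and AT5G59450 had slopes of 0.0575 ± 0.0233 and 0.0308 ± 0.0179 and did not pass. The only tested IDD gene was JKD, which rose in SCL3 OE (log2 0.81 ± 0.19, SE, adjusted p = 0.00709, limma) and had -0.13 ± 0.18 for scl3 minus Col-0. JKD read 160, 184 and 206 in SCL3 OE, 102, 88.5 and 72.1 in scl3, and 92.4, 115 and 80.4 in Col-0, with scl3 and Col-0 overlapping.

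**Figure D4:**
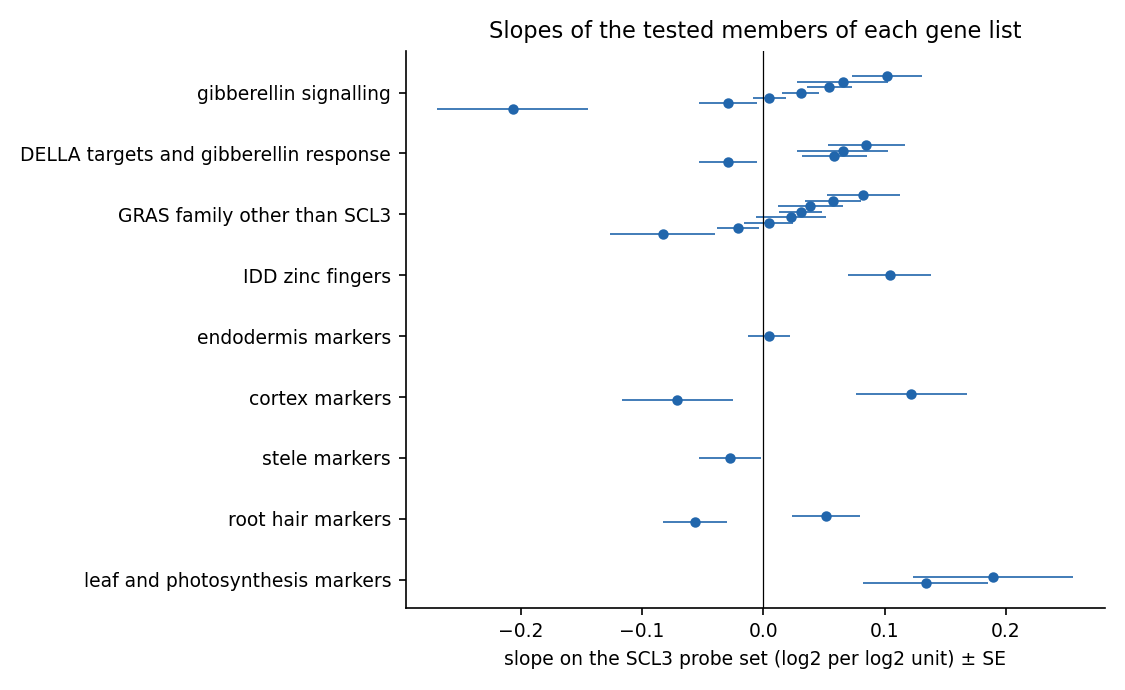
Slope on the log2 signal of the SCL3 probe set (log2 per log2 unit, ± SE, limma, 9 arrays) for each tested member of the gene lists. No slope passed the adjusted threshold; SLY2, at -0.206, is the lowest point and RCA, at 0.189, the highest.

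Of the 8 tested cell type markers, 4 rose and 2 fell in SCL3 OE against Col-0 in limma, where 17.6% of all tested probe sets were called higher and 16% lower. Both tested leaf genes, RCA and LHCB4.1, which binds chlorophyll in the photosystem II antenna, had positive slopes, of 0.189 ± 0.0661 and 0.134 ± 0.0516 (SE, adjusted p = 0.0953 and 0.115, limma). Without the term for the replicate 3 arrays their slopes turned to -0.0459 and -0.0980. LHCB4.1 read 714, 636 and 599 in SCL3 OE, 247, 295 and 19042 in scl3, and 193, 297 and 19894 in Col-0. The cortex genes went opposite ways, AT1G09750 with a slope of 0.122 ± 0.0458 and AT1G62500 with -0.0707 ± 0.0458, and both were highest in the replicate 3 arrays, at 5009 in scl3 and 5440 in Col-0 for AT1G09750 and 992 in scl3 and 1362 in Col-0 for AT1G62500. AT1G09750 rose in SCL3 OE against Col-0 (log2 1.14, adjusted p = 0.00123, limma) and AT1G62500 fell (-1.07, adjusted p = 0.000983). The slopes of GSO1 of the endodermis (0.00464 ± 0.0174), LHW of the stele (-0.0272 ± 0.0256) and 2 expansins of root hairs, EXPA7 (0.0517 ± 0.0283) and EXPA18 (-0.0561 ± 0.0264), did not pass (SE, adjusted p 0.176 to 0.874, limma). In SCL3 OE against Col-0, EXPA7 rose (log2 0.49, adjusted p = 0.0464, limma), whereas EXPA18 had a difference of -0.45 that did not pass (adjusted p = 0.0505). LHW fell (-0.56, adjusted p = 0.00222), and GSO1 had -0.11 and did not pass (adjusted p = 0.559, limma). No root cap gene had a named probe set. Their part in the pattern of other probe sets was not tested, and fewer cells of a type cannot be told apart from less RNA per cell in whole roots.

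The genes beside SCL3 on chromosome 1 did not share its pattern. Of the 5 annotated neighbours on each side, 3 had a tested probe set with 1 gene. AT1G50380 read 686, 764 and 729 in SCL3 OE, 685, 671 and 376 in scl3, and 661, 632 and 400 in Col-0. AT1G50440 read 563, 529 and 517 in SCL3 OE, 569, 538 and 392 in scl3, and 569, 563 and 409 in Col-0. AT1G50450 read 115, 85.8 and 75.5 in SCL3 OE, 93.7, 73.0 and 417 in scl3, and 86.2, 73.7 and 308 in Col-0. The SCL3 OE signals of AT1G50380 lay just above all those of scl3 and Col-0, which overlapped each other, and in the other 2 genes SCL3 OE overlapped scl3 and Col-0 as well. The replicate 3 arrays of scl3 and Col-0 stood apart in all 3 genes. Their slopes were 0.0119 ± 0.0135, -0.00296 ± 0.0128 and -0.000814 ± 0.0300 (SE), with adjusted p of 0.570 to 0.989 in limma. The 2 genes directly next to SCL3, AT1G50410 and DWF5, had no probe set that the annotation used here names.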

How the data were processed

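The deposited values were linear signal intensities per probe set, and the submitters' processing notes name MAS5 and Affymetrix Expression Console 1.1 for how the authors made them. Each array had a trimmed mean near 500.0, so the values were used as deposited. Detection calls were not used here, and precision is limited by how few arrays there are.

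Sample titles gave each array's genotype and replicate number. Signals were analysed as log2(signal + 1). Log2 differences on dim signals depend on this offset and are not lower bounds. For the SCL3 probe set, scl3 minus Col-0 was -5.03 with the offset of 1 and -3.78 with an offset of 32. The 64 control probe sets were left out, and the 13646 probe sets other than the SCL3 probe set whose mean log2 signal exceeded the 40th percentile (6.65) were tested. The annotation gave 13513 of 22746 plant probe sets 1 gene, 503 several and 8730 none; 13436 of the first matched RefSeq's TAIR10.1 table. A list gene was represented by its brightest tested probe set.

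Fits used limma 3.58.1 in R 4.3.3 with an intensity trend, 2-sided moderated tests and Benjamini-Hochberg adjustment. The slope fits were also run on simulated data with independent noise and no shift of the SCL3 OE array cluster. That run therefore cannot speak to the overlap of genotype and array cluster. The difference between steps was a contrast of group means, each divided by the change of the SCL3 probe set. Figures were drawn with matplotlib 3.10.9. The rule for named genes took, among tested probe sets of 1 gene with a called slope and genotypes apart on 7 arrays, the 8 highest and lowest r and the 6 largest slopes of each sign, and then up to 4 genes per list and the tested neighbours among 5 on each side; it named no gene by its first 2 parts. The probe set, lists and rules were chosen with earlier results of these data known. Deviations from the group mean of scl3 and Col-0 arrays of the same replicate number correlated at 0.885 to 0.945. The group means include the outlying replicate 3 arrays, whose shared shift enters all of these deviations. Arrays of different replicate numbers were not compared, so these values cannot show whether the replicate numbers pair the samples. The deviations of SCL3 OE correlated with those of either at -0.117 to 0.0898.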

Additional observations from a re-analysis of the deposited data

How the results depend on the processing

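The level of the SCL3 probe set kept its direction in every setting run, with -3.78 for scl3 minus Col-0 and 6.15 for SCL3 OE minus scl3 at an offset of 32. Since the probe set was picked for this direction, that is a description and no independent check. The count of straight-line followers, 0 as reported, became 1961 with the offset of 32, 12 with a filter at the 60th percentile, 6 after quantile normalization, 3867 with genotype order and 4878 over the Col-0 and SCL3 OE arrays, and ran from 0 to 2060 when single arrays were left out. The count whose steps differ, 2980 as reported, became 4 with no term for the replicate 3 arrays and 0 with the random block, and ran from 1662 to 3399 when single arrays were left out. The calls of SCL3 OE against Col-0 and against scl3 became 163 and 259 without the term, and 0 and 0 with the random block, an alternative chosen after seeing the data. The SCL3 OE arrays form a cluster of their own. The random block could therefore hardly give calls that involve them, and its counts decide nothing there. With the replicate block, 1928 probe sets had differing steps, and AT1G50440 had a slope of 0.000957 and AT1G50450 of 0.00849. The slopes at an unadjusted p under 0.05 in limma numbered 2518, against 4327 without the block. The block moved no other count of adjusted calls by over 1.5 times.

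Of 60 slopes followed across the settings, of genes and of probe sets with no gene name, 14 turned sign in at least 1 setting. Without the term they were 0.000569 for MDH, -0.0114 for GID1A, -0.0652 for AT1G09750, 0.0226 for LHW, 0.0177 for EXPA18, -0.0459 for RCA, -0.0980 for LHCB4.1 and 0.0150 for AT1G50440. With the random block they were 0.00160 for AT5G39960, -0.0467 for GID1A, 0.00673 for AT1G63100, -0.00914 for AT1G09750, 0.0304 for AT1G62500, 0.0431 for LHW, -0.0190 for RCA, -0.0330 for LHCB4.1 and 0.00881 for AT1G50440. Over the Col-0 and SCL3 OE arrays they were 0.0388 for GID1B, -0.0328 for GSO1 and 0.0795 for AT1G50450. GSO1 had -0.00109 over 7 arrays, and AT1G50450 had 0.0133 there, 0.0153 after quantile normalization and 0.0240 with genotype order. With single arrays left out, GSO1 ran from -0.00228 to 0.0113, AT1G50440 from -0.00695 to 0.00123 and AT1G50450 from -0.0212 to 0.0149. The cause was not tested. The 3 arrays per genotype, and signals near the floor in scl3, limit all of these values.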
